A study of Arabidopsis thaliana with 8 samples.

Results

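The 34 genes described here encode enzymes of the Calvin cycle and of photorespiration in Arabidopsis thaliana rosettes. They were taken from a fixed list of gene identifiers, 21 for carbon fixation and 13 for photorespiration, out of 34133 genes in the deposited tables, and all 34 were found there. The rule itself uses no expression value, although the list was drawn up with earlier results of these data known. The study asked how *ROS1*, a DNA glycosylase that removes methylated cytosine, bears on the response to a sublethal dose of imazethapyr, a herbicide that blocks acetolactate synthase in branched-chain amino acid synthesis. Transcripts were sequenced in 4 groups of 3-week-old Columbia-0 plants. WT IM was wild type and *ros1* IM the *ros1* mutant, both treated with imazethapyr at 10.6 g per hectare plus the adjuvant Dash at 0.5% (v/v). WT control and *ros1* control were the same genotypes without herbicide. The sources call the controls mock or non-treated and do not say plainly whether they received Dash, so the adjuvant and the herbicide cannot be told apart. The *ros1* line is 1 T-DNA insertion line, SALK_064264, which carries its insertion before the coding part of the gene and retains some transcript. Each group had 2 libraries, each made 48 h after treatment from 2 whole plants' rosettes.

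The Calvin cycle fixes carbon dioxide in the chloroplast. Rubisco joins it to ribulose bisphosphate, the reduction enzymes turn the product into triose phosphate with ATP and NADPH, and the regeneration enzymes rebuild the acceptor. Rubisco also reacts with oxygen, and the phosphoglycolate so formed is recycled by photorespiration, a pathway that runs through chloroplast, peroxisome and mitochondrion and releases carbon dioxide and ammonia at glycine decarboxylase. In leaves the transcripts of both pathways are known to be abundant in the light and to decline in senescence. CP12 proteins hold glyceraldehyde phosphate dehydrogenase and phosphoribulokinase in an inactive complex in the dark.

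Levels are given as FPKM, the fragments counted per kilobase of a transcript relative to all those mapped, a scale per length on which genes can be compared. The tables give 1 pooled FPKM per group, without single libraries. Hence no standard deviation, interval or test accompanies any value here, and each difference between groups is a description of pooled values. A gene is counted as lower or higher where its FPKM differed at least 2-fold and reached 1 in at least 1 of both groups. *ROS1* (AT2G36490) itself had an FPKM of 4.08 in *ros1* IM against 16.7 in WT IM, and of 19.0 in *ros1* control against 25.0 in WT control, so the genotypes differed little in this transcript without herbicide. All 4 leaf markers were detected in all 4 groups, where they summed to 5365 in WT IM, 22449 in WT control, 372 in *ros1* IM and 21375 in *ros1* control. None of 5 root markers reached an FPKM of 1 in any group, and in *ros1* IM they have no value. Of 5 flower markers only *SEP3* reached 1, at 1.65 in *ros1* IM, where the other 4 have no value. Root and flower markers each summed to at most 1.65 in any group. The FPKM of the 17187 genes with a value in all 4 groups summed to 720200 in WT IM, 978115 in WT control, 703490 in *ros1* IM and 920104 in *ros1* control. In *ros1* IM only 17284 genes have a value, since the tables read for it list only a part of the genes. How the authors chose that part is not settled here, and it includes genes that differ little between the groups.

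Several members are close copies, and their coding sequences show how far their reads can be told apart. *RBCS1B*, *RBCS2B* and *RBCS3B* lie next to each other on the minus strand of chromosome 5 (TAIR10.1), at chr5:15383167-15385320, chr5:15380907-15382071 and chr5:15376988-15378642. *RBCS1A* lies apart, at chr1:25048158-25049667. Between the 3 neighbours 96.7% to 97.3% of aligned coding bases were identical, against 90.4% to 90.6% between *RBCS1A* and any of them. The 100 coding bases nearest the stop codon that *RBCS1B* and *RBCS3B* share exactly are printed here. Beside them stand the closest stretches of *RBCS1A* and *RBCS2B*, with capitals where a gene differs from *RBCS1B*. It covers coding bases 437 to 536, or 452 to 551 in *RBCS3B*.
RBCS1A: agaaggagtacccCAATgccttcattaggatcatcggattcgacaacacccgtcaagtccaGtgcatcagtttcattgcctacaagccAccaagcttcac
RBCS1B: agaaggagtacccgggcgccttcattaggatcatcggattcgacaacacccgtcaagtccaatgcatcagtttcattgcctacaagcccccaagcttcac
RBCS2B: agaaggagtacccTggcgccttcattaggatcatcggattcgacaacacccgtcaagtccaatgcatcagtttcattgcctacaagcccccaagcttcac
RBCS3B: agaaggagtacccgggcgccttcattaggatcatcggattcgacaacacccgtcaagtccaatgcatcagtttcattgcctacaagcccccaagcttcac
*RBCS1A* differed at 6 of these positions, *RBCS2B* at 1 and *RBCS3B* at 0, the last by the choice of the stretch. Of all 100-base stretches of its transcript, *RBCS1B* shared 7.44% exactly with *RBCS3B*, and *RBCS3B* shared 8.93% with *RBCS1B*, so a part of their reads cannot be assigned to either. The paired photorespiratory copies *GOX1* and *GOX2* were 92.4% identical in coding sequence, *GLDP1* and *GLDP2* 85.2%, and the reductive *GAPA1* and *GAPA2* 85.8%, and none of these 6 shared a 100-base stretch with another gene. Outside the Rubisco genes, shared stretches were found in the *PGLP1* pair, in *RPI3* (15.2%, with the overlapping gene AT3G01505) and in *CPFBPASE* (1.67%, with the overlapping gene AT3G54060). The library kit does not mark strand, so reads of these overlapping genes cannot be told apart where they coincide.

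The 250 bases before each gene's start, as the deposited tables place it, were searched for a pair of motifs known from light-regulated promoters. These were the G-box, CACGTG, which reads the same on both strands, and the I-box, GATAAG, searched on both strands (CTTATC on the other). An occurrence of one can overlap the other by a single terminal base at most. A G-box was found before 9 of 34 members (26.5%), against 7.78% of 26026 nuclear protein-coding genes. An I-box was found before 10 members (29.4%), against 12.8% of those genes, and both motifs before 5 members (14.7%) against 1.23%. The 5 with both were *RBCS1A*, *RBCS2B*, *RBCS3B*, *CPFBPASE* and *CP12-1*, all of carbon fixation. Carbon fixation held a G-box in 7 of 21 genes (33.3%) and an I-box in 9 (42.9%), against 2 of 13 (15.4%) and 1 of 13 (7.69%) in photorespiration. By the gene spans of TAIR10.1, which begin further upstream, the motifs shown for *RBCS1A*, *RBCS1B*, *RBCS3B* and *CP12-1* lie inside the gene. The *RBCS2B* and *RBCS3B* windows also hold an I-box (CTTATC) in lower case. In the *RBCS1B* window another GATAAG overlaps the one shown. These windows have 30 bases each, with 1 motif in capitals. They lie before the deposited starts of the 4 Rubisco genes, *CPFBPASE*, *CP12-1*, a photorespiratory gene and *CP12-3*, the member that was not lower after treatment.
RBCS1A G-box, chr1:25049491-25049520, minus strand: ggaattatcttcCACGTGgcattattccag
RBCS2B G-box, chr5:15382177-15382206, minus strand: ggagttttctgcCACGTGatcttatcctag
RBCS3B G-box, chr5:15378506-15378535, minus strand: ggagttttctgcCACGTGgccttatcctag
RBCS1B I-box, chr5:15385303-15385332, minus strand: aaagaaagataaGATAAGggtgtcaacacc
CPFBPASE G-box, chr3:20016803-20016832, plus strand: taagagcaaagcCACGTGtcataacacaag
CP12-1 G-box, chr2:19446740-19446769, plus strand: aaaatctaagtaCACGTGgcaaaatatgct
GLDP1 G-box, chr4:15931438-15931467, minus strand: ttagatgcgataCACGTGgaatctgcaact
CP12-3 I-box, chr1:28728034-28728063, plus strand: ctttgcattgtgCTTATCtcaactacctta
The G-box windows of *RBCS1A*, *RBCS2B* and *RBCS3B* share letters beyond the motif, and those of *RBCS2B* and *RBCS3B* are the closest of the 3. The 9 members with a G-box had a median log2 ratio of −1.92 in the WT response and −4.09 in the *ros1* response, against −1.68 and −3.36 for the 23 measured members without one. For the I-box the medians were −1.88 and −4.11 in 10 members with it, against −1.49 and −3.29 in 22 without it. Carbon fixation supplied 7 of the 9 members with a G-box and 9 of the 10 with an I-box, so motif and pathway are not separated in these medians. A match of letters is not a binding site, and nothing about a factor follows from it.

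After imazethapyr, transcripts of both pathways were lower in both genotypes. In WT IM against WT control, 19 of 21 carbon fixation genes were at least 2-fold lower and 0 higher, with a median log2 ratio of −1.92. Among all 18829 genes compared, 18.7% were lower and 14.8% higher, and the median of those that reached 1 FPKM in both groups was 0.00. In *ros1* IM against *ros1* control, 20 of 21 were lower and 0 higher, with a median log2 ratio of −3.84, which is 14.3-fold. Of the 16403 genes with a value there, 26.8% were lower and 20.7% higher, and the median of those that reached 1 FPKM in both groups was 0.16. Genes without a *ros1* IM value are missing from that share, which would be 24.5% if they were all counted as not lower. They were 2397 of the 17946 genes at or above 1 FPKM in *ros1* control. Counted as lower, they would raise the share above 26.8%. Abundant genes as a class were lower more often than this. Of the 1673 genes at or above 100 FPKM in WT control, 39.7% were at least 2-fold lower in WT IM (median log2 ratio −0.62), and of the 1463 at or above 100 in *ros1* control and a value in *ros1* IM, 46.1% were lower in *ros1* IM (median −0.74). All carbon fixation genes but *CP12-3* were above 100 in both controls.

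**Figure D1:**
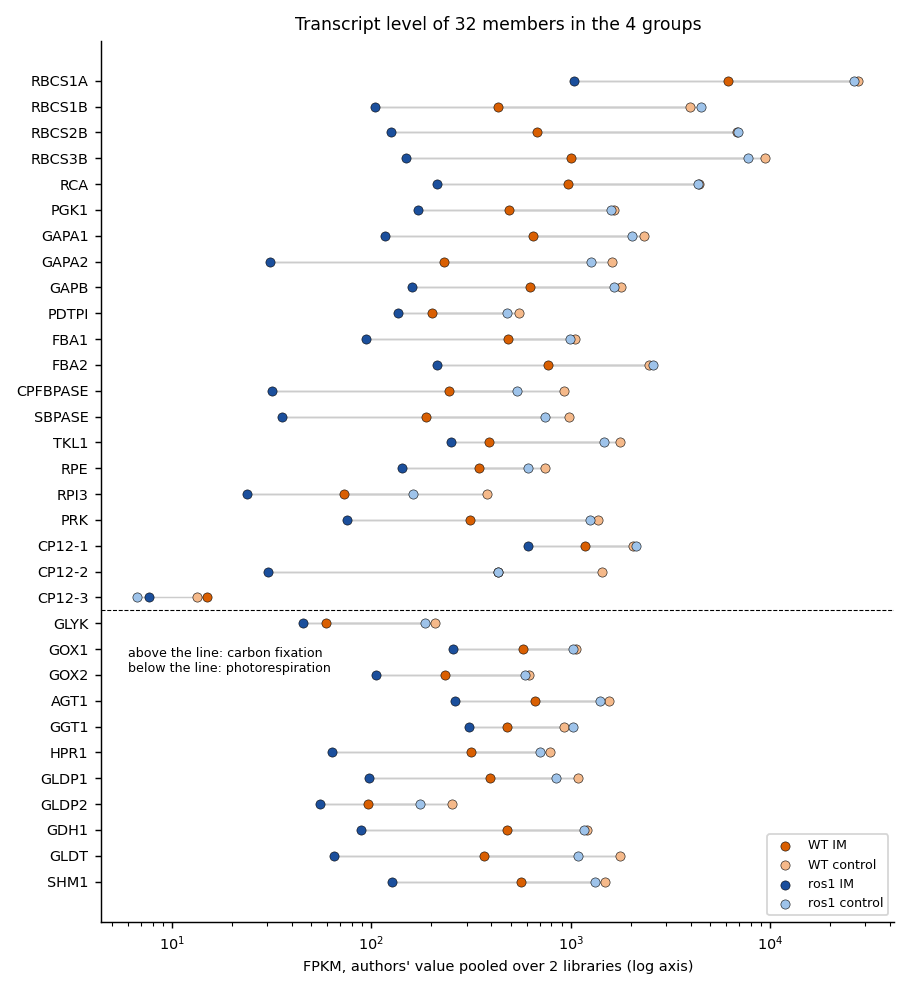
FPKM (log axis) of the 32 members with a value in all 4 groups, 1 row per gene, with 1 point for the pooled value of each group (WT IM, WT control, *ros1* IM, *ros1* control) and a line joining them. In 31 rows each IM point lies left of the control point of its own genotype, and in the row of *CP12-3*, between 6.71 and 15.0 FPKM, neither does.

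The small subunit genes of Rubisco, which complete the enzyme around its plastid-encoded catalytic subunit, included the most abundant members and were among the most reduced. *RBCS1A* (AT1G67090) had an FPKM of 6115 in WT IM against 27669 in WT control, and of 1042 in *ros1* IM against 26309 in *ros1* control. Among the genes with a value in each group, it ranked 1 in both controls, 3 in WT IM and 42 in *ros1* IM, where fewer genes have a value. Expressed as a share of its own control, 22.1% was left in WT IM and 3.96% in *ros1* IM. *RBCS1B* (AT5G38430) had 429.8 in WT IM against 3946 in WT control, and 105 in *ros1* IM against 4479 in *ros1* control. *RBCS2B* (AT5G38420) had 675 in WT IM against 6786 in WT control, and 126 in *ros1* IM against 6857 in *ros1* control, the lowest remaining share of the family at 1.83%. *RBCS3B* (AT5G38410) had 1008 in WT IM against 9451 in WT control, and 149 in *ros1* IM against 7735 in *ros1* control. The 3 clustered genes were thus 9.18-fold to 10.1-fold lower in WT IM, against 4.52-fold for *RBCS1A*, and 42.8-fold to 54.6-fold lower in *ros1* IM, against 25.3-fold for *RBCS1A*. *RBCS1A* accordingly made up 74.3% of the summed small subunit FPKM in WT IM against 57.8% in WT control, and 73.3% in *ros1* IM against 58.0% in *ros1* control. The gene for the large subunit, *RBCL*, is listed at 0 in both control groups and has no value in either IM group, so the subunits cannot be compared.

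**Figure D2:**
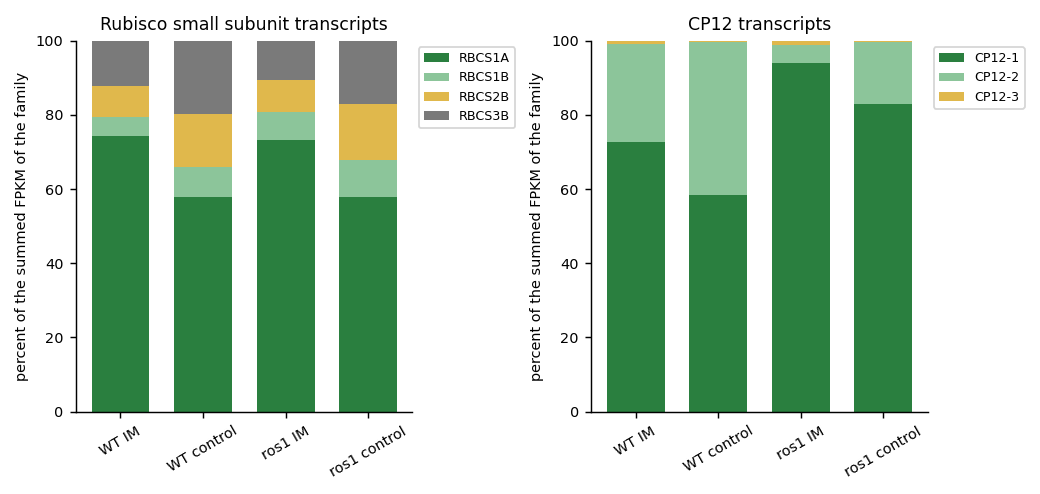
Share (percent, stacked bars from 0 to 100) of each gene in the summed FPKM of the 4 Rubisco small subunit genes (left) and the 3 CP12 genes (right) in WT IM, WT control, *ros1* IM and *ros1* control. The *RBCS1A* share was 74.3% and 73.3% in the IM groups of wild type and *ros1* against 57.8% and 58.0% in their controls, and the *CP12-2* share was 4.68% in *ros1* IM against 16.9% in *ros1* control.

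Rubisco activase, which frees the active site of blocking sugar phosphates, was close to *RBCS1A* in wild type. *RCA* (AT2G39730) had an FPKM of 966 in WT IM against 4380 in WT control, and of 214 in *ros1* IM against 4339 in *ros1* control. This was 4.53-fold lower in wild type and 20.2-fold lower in *ros1*.

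All 4 genes of the reduction phase were lower in both genotypes, the paired subunit genes unequally. *PGK1* (AT3G12780), phosphoglycerate kinase, had 492 in WT IM against 1655 in WT control, and 171 in *ros1* IM against 1591 in *ros1* control. *GAPA1* (AT3G26650), for the A subunit of plastid glyceraldehyde phosphate dehydrogenase, had 649 in WT IM against 2323 in WT control, and 116 in *ros1* IM against 2033 in *ros1* control. *GAPA2* (AT1G12900), the second A subunit gene, had 231 in WT IM against 1601 in WT control, and 30.9 in *ros1* IM against 1257 in *ros1* control. *GAPA1* exceeded *GAPA2* 2.81-fold in WT IM against 1.45-fold in WT control, and 3.77-fold in *ros1* IM against 1.62-fold in *ros1* control, so *GAPA2* was the more reduced of the pair in both genotypes. *GAPB* (AT1G42970), for the B subunit that carries the regulatory tail, had 628 in WT IM against 1791 in WT control, and 161 in *ros1* IM against 1644 in *ros1* control. The log2 ratio of *GAPA2* in *ros1* was −5.35, close to those of the clustered Rubisco genes, while that of *GAPB* was −3.36.

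The 9 regeneration genes were all at least 2-fold lower in both genotypes, over a wide range. The bisphosphatases, which make irreversible steps, and phosphoribulokinase, which forms the acceptor, were the most reduced of them in *ros1*. *SBPASE* (AT3G55800), sedoheptulose bisphosphatase, had 189 in WT IM against 979 in WT control, and 35.7 in *ros1* IM against 738 in *ros1* control. *CPFBPASE* (AT3G54050), plastid fructose bisphosphatase, had 244 in WT IM against 921 in WT control, and 31.8 in *ros1* IM against 540.2 in *ros1* control. *PRK* (AT1G32060), phosphoribulokinase, had 311 in WT IM against 1364 in WT control, and 75.5 in *ros1* IM against 1245 in *ros1* control. These 3 were 3.78-fold to 5.19-fold lower in wild type and 16.5-fold to 20.7-fold lower in *ros1*. In wild type they did not stand apart, since *RPI3* (5.21-fold) was the most reduced of the 9 genes and *TKL1* (4.56-fold) exceeded *PRK* (4.39-fold).

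The aldolases, which join triose phosphates to each other or to erythrose phosphate, were less reduced in wild type than in *ros1*. *FBA1* (AT2G21330) had 487 in WT IM against 1044 in WT control, and 93.5 in *ros1* IM against 994 in *ros1* control. *FBA2* (AT4G38970) had 769 in WT IM against 2466 in WT control, and 213 in *ros1* IM against 2571 in *ros1* control. For *FBA1* the log2 ratio was −1.10 in wild type, the smallest reduction of the regeneration genes, and −3.41 in *ros1*, so this gene had the largest difference between the genotypes among them. Triose phosphate isomerase, transketolase and the pentose phosphate isomerase and epimerase were less reduced in *ros1* than the other regeneration genes. Each of them was still more reduced in *ros1* than in wild type. *PDTPI* (AT2G21170), plastid triose phosphate isomerase, had 202 in WT IM against 548 in WT control, and 136 in *ros1* IM against 476 in *ros1* control. *TKL1* (AT3G60750), transketolase, had 388 in WT IM against 1768 in WT control, and 252 in *ros1* IM against 1464 in *ros1* control. *RPI3* (AT3G04790), ribose phosphate isomerase, had 73.2 in WT IM against 381 in WT control, and 23.7 in *ros1* IM against 161 in *ros1* control. These 3 genes were the regeneration members whose log2 ratio differed least between the genotypes, by −0.35 to −0.38 (*ros1* response minus WT response). *RPE* (AT5G61410), ribulose phosphate epimerase, had 345 in WT IM against 745 in WT control, and 143 in *ros1* IM against 613 in *ros1* control, a difference of −0.99 on the same scale.

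The 3 CP12 genes did not move alike, and they held the 2 carbon fixation genes that were not 2-fold lower in wild type. *CP12-1* (AT2G47400) had an FPKM of 1179 in WT IM against 2042 in WT control, a log2 ratio of −0.79, and of 609 in *ros1* IM against 2125 in *ros1* control. *CP12-2* (AT3G62410) had 431 in WT IM against 1437 in WT control, and 30.3 in *ros1* IM against 433 in *ros1* control. *CP12-3* (AT1G76560), the least abundant, had 15.0 in WT IM against 13.3 in WT control, and 7.71 in *ros1* IM against 6.71 in *ros1* control. It was the single carbon fixation gene with a ratio above 0, at 0.17 and 0.20 on the log2 scale. *CP12-1* made up 72.6% of the summed CP12 FPKM in WT IM against 58.5% in WT control, and 94.1% in *ros1* IM against 82.9% in *ros1* control. Among the genes with a value in each group, *CP12-1* ranked 32 by FPKM in WT IM against 46 in WT control. It ranked 120 in *ros1* IM, where fewer genes have a value, against 45 in *ros1* control.

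Of the 13 photorespiratory genes, 11 had an FPKM of at least 1 in at least 1 of the groups compared. In WT IM against WT control 9 of these 11 were at least 2-fold lower and 0 higher, with a median log2 ratio of −1.39, and in *ros1* IM against *ros1* control 11 of 11 were lower, with a median of −2.48. The backgrounds are the 18.7% and 26.8% lower given above. Among genes at or above 100 FPKM in the control, where all 11 lay in both genotypes, they are 39.7% and 46.1%. The wild-type count depends on the scaling. With each group scaled to the same summed FPKM, 3 genes (*GLYK*, *GLDP1* and *GLDT*) remained at least 2-fold lower in WT IM, while the *ros1* count stayed at 11. The share of all genes lower on that scale was not computed, so that the count of 3 has no background beside it.

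The pathway starts in the chloroplast with phosphoglycolate phosphatase and is completed there by glycerate kinase. Both loci of the phosphatase *PGLP1* were listed near 0. AT5G36700 had an FPKM of 0 in WT IM against 0.0525 in WT control and was listed at 0 in *ros1* control, and AT5G36790 had 0.0195 in WT IM against 0.250 in WT control and was listed at 0 in *ros1* control. Neither had a value in *ros1* IM, and no change is read from them. Their coding sequences were identical at 1089 of 1089 bases, and 87.2% and 94.6% of the 100-base stretches of AT5G36700 and AT5G36790 occurred in the other, so that their level cannot be judged from these values. *GLYK* (AT1G80380), glycerate kinase, had 59.4 in WT IM against 209 in WT control, and 45.3 in *ros1* IM against 186 in *ros1* control. Its log2 ratio of −1.81 in wild type and −2.04 in *ros1* differed least between the genotypes among the photorespiratory members.

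The 5 peroxisomal genes oxidise glycolate, aminate glyoxylate and reduce hydroxypyruvate, and they had the smallest median reduction of the pathway in wild type. *GOX1* (AT3G14420), glycolate oxidase, had 575 in WT IM against 1059 in WT control, and 255 in *ros1* IM against 1027 in *ros1* control. *GOX2* (AT3G14415), its neighbour on chromosome 3, had 235 in WT IM against 620.3 in WT control, and 105 in *ros1* IM against 589 in *ros1* control. *GOX1* exceeded *GOX2* 2.45-fold in WT IM against 1.71-fold in WT control, and 2.42-fold in *ros1* IM against 1.74-fold in *ros1* control, so the balance of the pair was the same in both treated genotypes. *AGT1* (AT2G13360), which transfers the amino group of serine to glyoxylate, had 665 in WT IM against 1561 in WT control, and 261 in *ros1* IM against 1395 in *ros1* control. *GGT1* (AT1G23310), which uses glutamate instead, had 481 in WT IM against 922 in WT control, and 310.3 in *ros1* IM against 1020.0 in *ros1* control. *GOX1* and *GGT1*, with log2 ratios of −0.88 and −0.94, were the photorespiratory genes not 2-fold lower in wild type. *HPR1* (AT1G68010), hydroxypyruvate reductase, had 317 in WT IM against 785 in WT control, and 63.7 in *ros1* IM against 704 in *ros1* control. At 11.1-fold lower in *ros1* it stood apart from the other 4, which were 3.29-fold to 5.59-fold lower there.

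In the mitochondrion glycine decarboxylase and serine hydroxymethyltransferase turn a pair of glycines into serine, and these genes had a larger median reduction in *ros1* than the peroxisomal ones, at −3.39 against −2.42. *GLDP2* was the exception, at −1.67 the least reduced photorespiratory gene in *ros1*. *GLDP1* (AT4G33010), a gene for the P protein that decarboxylates glycine, had 392 in WT IM against 1082 in WT control, and 97.0 in *ros1* IM against 844 in *ros1* control. *GLDP2* (AT2G26080), the second P protein gene, had 96.3 in WT IM against 253 in WT control, and 55.1 in *ros1* IM against 176 in *ros1* control. *GLDP1* exceeded *GLDP2* 4.07-fold in WT IM against 4.28-fold in WT control, but 1.76-fold in *ros1* IM against 4.79-fold in *ros1* control. The balance of this pair was thus different in *ros1* IM from the other 3 groups. *GDH1* (AT2G35370), for the H protein that carries the aminomethyl group, had 481 in WT IM against 1202 in WT control, and 88.4 in *ros1* IM against 1171 in *ros1* control. *GLDT* (AT1G11860), for the T protein that hands this group to folate, had 366 in WT IM against 1773 in WT control, and 65.0 in *ros1* IM against 1091 in *ros1* control. *GLDT* was the most reduced photorespiratory gene in both genotypes, 4.85-fold and 16.8-fold. *SHM1* (AT4G37930), the mitochondrial serine hydroxymethyltransferase, had 563 in WT IM against 1488 in WT control, and 127 in *ros1* IM against 1330 in *ros1* control, or 2.64-fold and 10.5-fold lower.

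**Figure D3:**
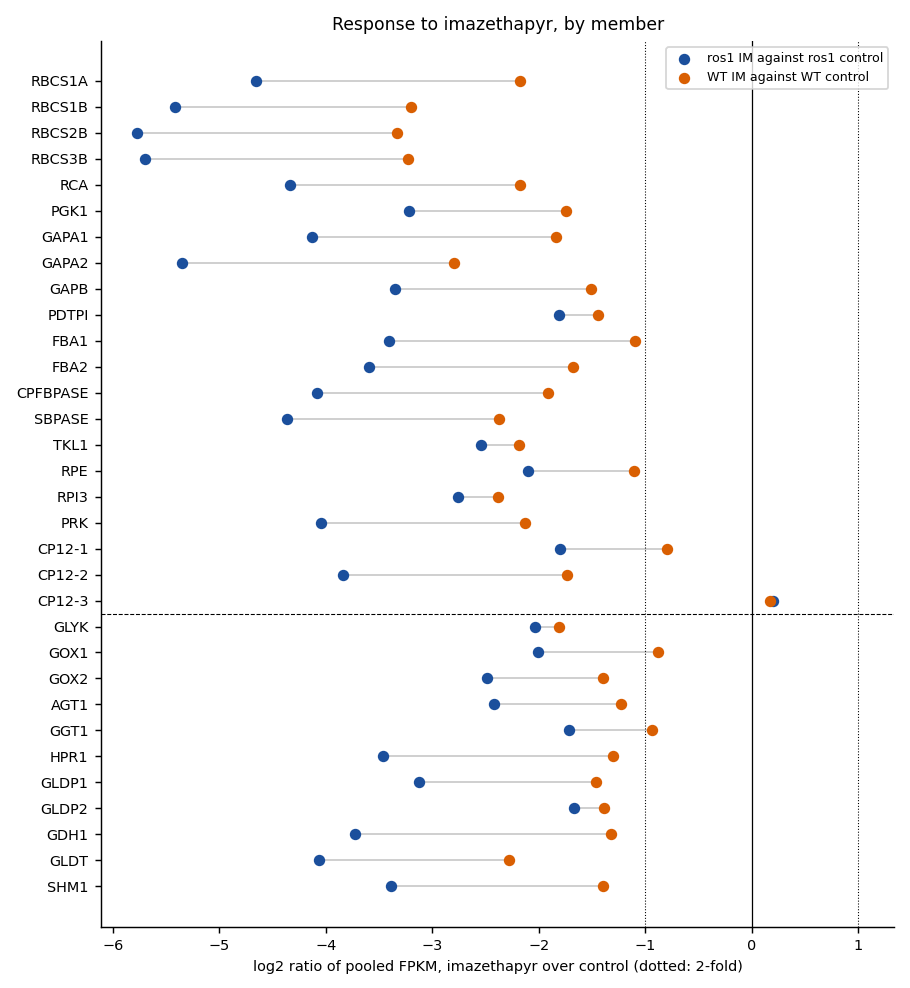
Log2 ratio of pooled FPKM after imazethapyr for 32 members, carbon fixation above and photorespiration below the dashed line, in *ros1* (*ros1* IM over *ros1* control) and in wild type (WT IM over WT control); dotted lines mark 2-fold. The *ros1* point lies left of the wild-type point in 31 of 32 rows, with *RBCS2B* at −5.77 the leftmost, and in the row of *CP12-3* the points are at 0.20 and 0.17.

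Carbon fixation was reduced more than photorespiration in both genotypes. The difference of the medians, carbon fixation minus photorespiration, was −0.53 on the log2 scale in WT IM against WT control and −1.35 in *ros1* IM against *ros1* control. With near-identical copies summed into 1 value each it was −0.48 and −0.83, the same direction at a smaller size. The summed FPKM of carbon fixation was 15825 in WT IM against 73313 in WT control, 4.63-fold lower, and 3764 in *ros1* IM against 67611 in *ros1* control, 18.0-fold lower. For photorespiration the sum was 4232 in WT IM against 10954 in WT control, 2.59-fold lower, and 1473 in *ros1* IM against 9532 in *ros1* control, 6.47-fold lower. As a share of the summed FPKM of all genes with 4 values, carbon fixation held 2.20% in WT IM against 7.50% in WT control, and 0.535% in *ros1* IM against 7.35% in *ros1* control. Photorespiration held 0.588% in WT IM against 1.12% in WT control, and 0.209% in *ros1* IM against 1.04% in *ros1* control. Carbon fixation transcripts thus outweighed photorespiratory ones 3.74-fold in WT IM against 6.69-fold in WT control, and 2.56-fold in *ros1* IM against 7.09-fold in *ros1* control. Much of this shift lay in the small subunits of Rubisco, which were 52.0% of the carbon fixation sum in WT IM against 65.3% in WT control, and 37.7% in *ros1* IM against 67.1% in *ros1* control. Without them the ratio was 1.80 in WT IM against 2.32 in WT control, and 1.59 in *ros1* IM against 2.33 in *ros1* control, the same direction at a smaller size. The ranges of single genes overlapped widely. In *ros1*, *GLDT* at −4.07 was more reduced than the carbon fixation median of −3.84. *GLDT*, *GDH1*, *HPR1*, *SHM1* and *GLDP1* were each more reduced there than *PDTPI*, *RPE*, *TKL1*, *RPI3*, *CP12-1* and *CP12-3*.

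The reduction was larger in *ros1* than in wild type for 31 of 32 members, with *CP12-3* the exception at a difference of 0.03. The log2 ratio in *ros1* minus that in wild type had a median of −1.99 over the carbon fixation members and −1.19 over the 11 photorespiratory members. Over 15554 genes compared in both it was −0.08. Over the 17 further photorespiratory genes described below the median was −0.16, with 9 below 0 and 8 above. This difference was at least 2-fold (1 on the log2 scale) for 24 of 32 members in either direction, against 4184 of the 15554. The Rubisco small subunits differed by −2.22 to −2.48 and *GAPA2* by −2.55, the largest of all members. *GDH1* had the largest difference of the photorespiratory genes, at −2.41. At the other end lay *GLYK* at −0.22, *GLDP2* at −0.28, *TKL1* at −0.35, *PDTPI* at −0.37 and *RPI3* at −0.38. Across the 32 members the log2 ratios of both genotypes, which share no group, were correlated with Pearson's r of 0.86 and Spearman's rho of 0.77, so the order of the genes was similar. Within carbon fixation r was 0.89 and rho 0.79 (21 genes), and within photorespiration 0.51 and 0.44 (11 genes). The log2 FPKM in WT control and the log2 ratio in *ros1* were related with r of −0.77 and rho of −0.66, and the log2 FPKM in *ros1* control and the log2 ratio in wild type with r of −0.58 and rho of −0.38. Within photorespiration these were −0.61 and −0.58 for the ratio in *ros1*, but 0.24 and 0.21 for that in wild type. The points are genes of the same pooled libraries, not independent replicates, and these coefficients are descriptions.

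Without herbicide the members of both pathways had similar levels in the 2 genotypes. In *ros1* control against WT control 2 of 21 carbon fixation genes and 0 of 11 photorespiratory genes were at least 2-fold lower and none was higher, against 10.5% lower and 6.55% higher among all 18799 genes compared. The medians were −0.19 and −0.16 on the log2 scale, against 0.01 over all genes. The genes that differed were *CP12-2*, with an FPKM of 433 in *ros1* control against 1437 in WT control (3.32-fold lower), and *RPI3*, with 161 in *ros1* control against 381 in WT control (2.37-fold lower). *CP12-3* lay just short of the threshold, with 6.71 in *ros1* control against 13.3 in WT control. Next came *CPFBPASE* at −0.77, *GLDT* at −0.70 and *GLDP2* at −0.52, while the 4 Rubisco small subunits lay between −0.29 and 0.18. *RPI3* and *CPFBPASE* are the members that share reads with an overlapping gene, and the part of this in their values was not tested. With imazethapyr 17 of 21 carbon fixation genes and 8 of 11 photorespiratory genes were at least 2-fold lower in the *ros1* IM group when set against WT IM and none was higher, against 22.9% lower and 13.2% higher among 16329 genes. Of the 18036 genes at or above 1 FPKM in WT IM, 2314 have no *ros1* IM value and are missing from the lower share. That share would be 20.7% if they were counted as not lower, and above 22.9% if counted as lower. The medians of the members were −2.04 and −1.35, against 0.07 over the genes that reached 1 FPKM in both groups. All 32 members had the lower value in *ros1* IM. The 7 members that did not reach 2-fold were *PDTPI*, *TKL1*, *CP12-1*, *CP12-3*, *GLYK*, *GGT1* and *GLDP2*. *CP12-2* differed most, with 30.3 in *ros1* IM against 431 in WT IM, 14.2-fold lower. These genotype comparisons use the same 4 pooled values per gene as the responses above and are not independent of them.

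**Figure D4:**
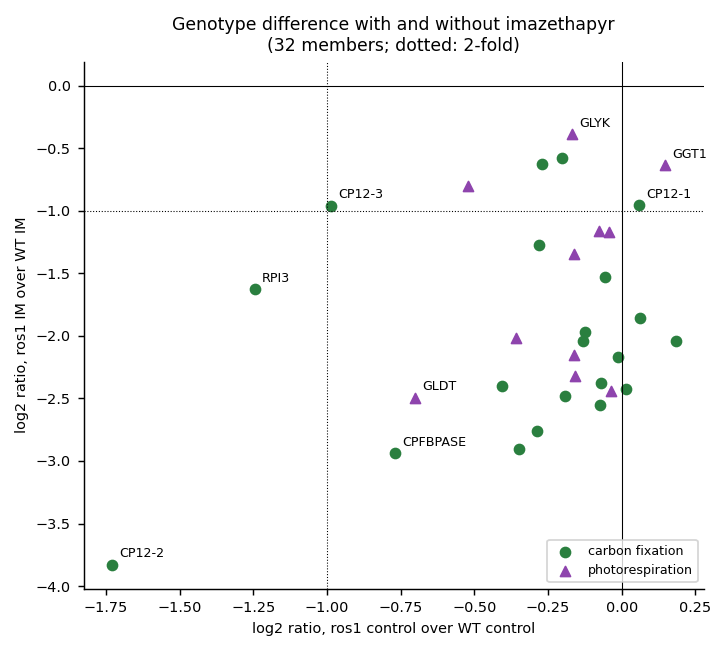
Log2 ratio of pooled FPKM between the genotypes with imazethapyr (*ros1* IM over WT IM, vertical axis) and without it (*ros1* control over WT control, horizontal axis) for 32 members, circles for carbon fixation and triangles for photorespiration. Most points lie near 0 on the horizontal axis and all lie below 0 on the vertical axis, with *CP12-2* at −1.73 and −3.83 the lowest on both.

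Genes that work next to these enzymes are set beside the shares over all genes, of which 18.7% were lower and 14.8% higher in wild type and 26.8% lower and 20.7% higher in *ros1* (39.7% and 46.1% lower among abundant genes). Of 10 genes for Rubisco assembly factors and chaperonins, 9 were at least 2-fold lower and 0 higher in each genotype, with medians of −1.74 in wild type and −2.95 in *ros1*. *RBCX1*, an assembly chaperone, had 19.1 in WT IM against 68.7 in WT control, and 3.39 in *ros1* IM against 76.0 in *ros1* control. *CPN60B1*, a chaperonin subunit, had 124 in WT IM against 678 in WT control, and 54.0 in *ros1* IM against 628 in *ros1* control. The exception was *RBCX2*, chosen after its values were seen, with 63.3 in WT IM against 80.4 in WT control, and 107 in *ros1* IM against 57.2 in *ros1* control. Of 9 genes for the thioredoxin system that activates Calvin cycle enzymes in the light, 4 were lower in wild type and 9 in *ros1*, with medians of 1.99-fold and 4.70-fold lower. The wild-type count is near the share of abundant genes that were lower. *TRXF2*, an f-type thioredoxin, had 20.5 in WT IM against 76.3 in WT control, and 3.02 in *ros1* IM against 48.4 in *ros1* control. No gene of this list was higher in either genotype.

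Further photorespiratory genes were mixed. Of 17 measured, 9 were lower and 2 higher in each genotype, with medians of −1.27 in wild type and −1.32 in *ros1*, so that more were lower and no more were higher than among all genes (18.7% lower and 14.8% higher in wild type, 26.8% and 20.7% in *ros1*). *GDH3*, another H protein gene, had 299 in WT IM against 1106 in WT control, and 23.1 in *ros1* IM against 793 in *ros1* control. *PLGG1*, the plastid exporter of glycolate and importer of glycerate, had 86.8 in WT IM against 366 in WT control, and 13.5 in *ros1* IM against 295 in *ros1* control. The plastid dicarboxylate transporter *DIT1* was 4.53-fold lower in WT IM, and *GLN2*, the plastid glutamine synthetase that refixes ammonia, was reduced 8.42-fold in *ros1* IM against *ros1* control. *GOX3*, a glycolate oxidase homologue named for its values in both genotypes after they were seen, went the other way from *GOX1* and *GOX2*, with 27.3 in WT IM against 0.761 in WT control, and 100.1 in *ros1* IM against 0.693 in *ros1* control. In *ros1* IM its FPKM was thus close to that of *GOX2* (105).

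Isoforms outside the cycle had counts near those of all genes. Of 14 genes for cytosolic or heterotrophic forms of the same enzymes, 3 were lower and 1 higher in wild type, and 3 lower and 2 higher in *ros1*, with medians of 0.08 and 0.25, against 18.7% lower and 14.8% higher in wild type and 26.8% lower and 20.7% higher in *ros1* among all genes. The genes that were lower in both were *FBA5*, *FBA7* and *CYFBP*. *FBA5*, a cytosolic aldolase, had 26.7 in WT IM against 250 in WT control, and 1.96 in *ros1* IM against 251 in *ros1* control, a larger reduction than that of either plastid aldolase. *CYFBP*, the cytosolic fructose bisphosphatase of sucrose synthesis, had 120 in WT IM against 342 in WT control, and 35.1 in *ros1* IM against 366 in *ros1* control. *FBA6*, another cytosolic aldolase, was 2.22-fold higher in WT IM than in WT control, and *GAPCP2*, a plastid glycolytic dehydrogenase, was 3.91-fold higher in *ros1* IM than in *ros1* control. Of 6 further plastid genes, 4 were lower and 1 higher in wild type, and 4 lower and 2 higher in *ros1*. *CA1*, carbonic anhydrase, had 492 in WT IM against 4358 in WT control, and 46.5 in *ros1* IM against 3995 in *ros1* control. *TKL2*, a second transketolase, was higher, with 23.8 in WT IM against 8.10 in WT control, and 25.9 in *ros1* IM against 3.95 in *ros1* control, while *TKL1* was lower in both.

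**Figure D5:**
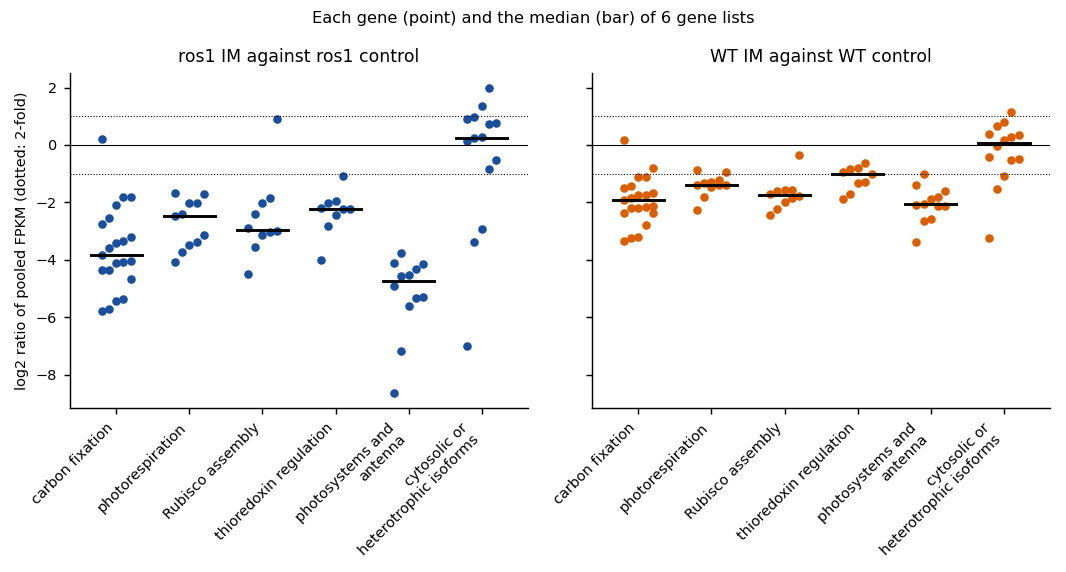
Log2 ratio of pooled FPKM for each gene (points) of 6 lists and the median of each list (bars), in *ros1* (*ros1* IM over *ros1* control, left) and in wild type (WT IM over WT control, right); dotted lines mark 2-fold. The medians of carbon fixation were −3.84 and −1.92, those of photosystems and antenna −4.73 and −2.07, and those of the cytosolic or heterotrophic isoforms 0.25 and 0.08.

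Other leaf programmes moved with the same groups. All 12 photosystem and antenna genes were lower in both genotypes, with medians of −2.07 in wild type and −4.73 in *ros1*. Among all genes 18.7% were lower in wild type and 26.8% in *ros1* (39.7% and 46.1% of abundant genes). The log2 ratio of these 12 genes in *ros1* minus that in wild type had a median of −2.87. *LHCB5*, an antenna protein gene, had 502 in WT IM against 3132 in WT control, and 53.8 in *ros1* IM against 2621 in *ros1* control. Of 8 senescence markers, 6 of the 7 measured in wild type were higher in WT IM and 8 of 8 in *ros1* IM, against 14.8% and 20.7% of all genes. In wild type *SAG12*, *ORE1* and *NAP* reached 1 FPKM only in WT IM, so they could only be counted as higher. The same holds for *SAG12* in *ros1*. *SAG12* had 2.06 in WT IM and 1.62 in *ros1* IM, against 0 in both controls. *SEN1* reached 1 FPKM in neither wild-type group and was left out there. *SAG13* had an FPKM of 190.4 in WT IM against 2.25 in WT control, and of 1098 in *ros1* IM against 36.3 in *ros1* control. In *ros1* control against WT control 4 of 7 senescence markers were higher, against 6.55% of all genes, *SAG13* by 16.2-fold, while the members of both pathways differed little. All 7 are named here. Besides *SAG13*, the higher ones reached 1 FPKM only in *ros1* control. They were *NAP* with 1.21 in *ros1* control against 0.292 in WT control, *ORE1* with 2.21 against 0.272 and *SEN1* with 2.30 against 0.315. *SGR1*, *PPH* and *PAO* were not 2-fold apart, at log2 ratios of 0.18, −0.30 and −0.09. The part of senescence in the members' values was not tested. In whole rosettes fewer photosynthetic cells and less of these transcripts per cell cannot be told apart.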

How the data were processed

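RNA-sequencing of whole rosettes was analysed in 8 libraries, 2 in each of 4 groups. Reads were handled with FastQC 0.10.1, TopHat2, Bowtie2 and Cufflinks against TAIR10, per the submitters' processing notes; the Cuffdiff version and annotation release are not given in the sources used here. The authors deposited Excel workbooks with 1 FPKM per gene and group, pooled over both libraries by Cuffdiff. The columns of their own comparisons (log2 fold changes, test statistics, p-values and q-values) were not used. The 7 workbooks gave 7 tables that were read and 26 that were not used. Of those read, the table of all genes breaks off at 65535 rows. The others list a part of the genes, chosen by the authors in a way not settled here. Hence 34133 genes have a value in the controls, 32920 in WT IM and 17284 in *ros1* IM. Where a gene and group occurred in several tables (65341 of 118470 pairs), the values differed in 0. The depth of each library is unknown from the deposited values, so no interval or detection limit is given. The authors report that a smaller share of *ros1* reads than of wild-type reads aligned to the genome. The part of this in the differences between genotypes was not tested.

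From the FPKM, log2 ratios were computed with no pseudocount (Python 3.11.15, pandas 2.3.3, numpy 2.4.6, matplotlib 3.10.9). A gene was counted where it differed at least 2-fold with an FPKM of at least 1 in at least 1 of both groups. The script was tested on simulated data. Named are all 34 members, *ROS1*, and up to 4 genes per further list and comparison with the largest log2 ratio among those reaching 1 FPKM in both groups; the text says where a gene was chosen otherwise. The members and lists were chosen with earlier results of these data known. Sequences and gene spans come from the RefSeq TAIR10.1 genome; 31415 of 31416 nuclear genes matched by identifier overlapped the deposited locus. Gene starts for the promoter windows are those of the deposited loci. Alternatives were other folds, pseudocounts, filters and scalings, and the sum of near-identical copies.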

Additional observations from a re-analysis of the deposited data

How the results depend on the processing

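The counts of lower members and the list medians were recomputed under 9 alternatives, 198 values in all. Counts were held to 1.5 times the reported count, and medians and their differences to 1.5-fold, a shift of their log2 value. By this measure 190 stayed within the limit, 8 counts moved further and 0 medians changed direction. At 1.5-fold, 4 carbon fixation genes and 1 photorespiratory gene were lower in *ros1* control when set against WT control (reported: 2 and 0). At 4-fold, 10 carbon fixation genes and 1 photorespiratory gene were lower in WT IM than in WT control (19 and 9), 0 carbon fixation genes in *ros1* control than in WT control (2), and 5 photorespiratory genes in *ros1* IM than in WT IM (8). With no filter on low values, 2 photorespiratory genes, both *PGLP1* loci listed at 0 in *ros1* control, were lower there than in WT control. Scaled to the summed FPKM, 3 photorespiratory genes were lower in WT IM (9). Centring used the median of the genes that reached 1 FPKM in both groups, 0.16 in the *ros1* response. Neither centring nor pseudocounts of 1 and 0.1 moved a count over 1.5 times or a median by 1.5-fold. The same held for a minimum of 5 FPKM in both groups and for summing near-identical copies. Read as log2 values, 4 medians or differences moved by over 1.5 times. With copies summed, the median of carbon fixation minus that of photorespiration was −0.83 in the *ros1* response (−1.35) and −0.36 in *ros1* IM against WT IM (−0.69). Scaled to the summed FPKM, the medians in *ros1* control against WT control were −0.10 and −0.07 (−0.19 and −0.16).

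No paired analysis was possible because the tables hold 1 pooled value per group. For the same reason leaving out each library could not be run, and whether 1 library decides a value is unknown.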
